A study of Mus musculus with 13 samples.

Results

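Genomic imprinting leaves some genes active mainly from the copy of a single parent, and many of these genes act on growth. The 10 genes described here are such imprinted growth genes: the noncoding RNA H19 and the growth factor gene Igf2, and with them Dlk1, Meg3, Cdkn1c, Peg3, Grb10, Igf2r, Mest and Plagl1. They were taken by symbol, and all 10 were found among 33432 gene rows. They were selected on their FPKM values in the 3 groups and on the differences between those groups. Both are therefore given as a description, and no test result is read from them. RNA-seq was made from 13 libraries of mesenchymal stromal cells (MSCs), the connective-tissue cells of the marrow, of mice kept on the C57BL/6 background. Of these libraries 4 are labelled recovered, 6 pre-leukemic and 3 healthy homeostatic. The protocol names 3 kinds of mice, MSC-treated pre-leukemic, pre-leukemic and control, which match these labels in that order. The sources used here state neither the lesion that makes the mice pre-leukemic, nor their ages or the surface markers of the sort. They also leave out whether the cells of recovered mice were the host's own or the infused ones, and whether each replicate was a separate animal. The p-values below therefore cover the spread from library to library, which may be technical.

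In the mouse, H19 and Igf2 lie side by side and share enhancers. The insulator protein CTCF binds the unmethylated maternal control region between them, so that the maternal copy makes H19 and the paternal copy makes Igf2, a peptide that drives growth before birth. Dlk1 and Meg3 form a similar pair, with the protein-coding gene on the paternal and the noncoding RNA on the maternal copy. Several of the 10 genes are high in fetal and postnatal tissue and decline with age, and Plagl1 and H19 have been described in the mouse as regulators of a network of imprinted genes. FPKM values, fragments scaled by transcript length and library depth, sum both parental copies and carry no allele information.

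The libraries differed in more than these genes. Of the FPKM summed over all genes, immunoglobulin genes made up 0.00642 to 0.134% in recovered, 54.9 to 80.5% in pre-leukemic and 0.0189 to 0.0305% in healthy libraries. Summed over 14 pan-leukocyte markers, the level was 82 to 251 FPKM in recovered, 2921 to 3539 in pre-leukemic and 141 to 175 in healthy libraries. Summed over 14 mesenchymal markers it was 4199 to 5061, 3349 to 6629 and 4601 to 4910 FPKM in the same order. The pre-leukemic sum was mostly Ly6a, which averaged 5030 FPKM there, 404% of its healthy mean, so this sum does not show equal mesenchymal content. Ptprc, the leukocyte antigen CD45, was at most 16.4 FPKM in recovered, 80.7 to 155 FPKM in pre-leukemic and at most 1.25 FPKM in healthy libraries. Estimated from the steps between low values, 1 read on 1 kb was worth 0.349 to 0.636 FPKM in recovered, 0.166 to 0.243 in pre-leukemic and 0.319 to 0.389 in healthy libraries, so low levels were measured more finely in the pre-leukemic ones. Healthy 1 and 3 differed by little more than sampling noise, with a chi-square per gene of 1.21 over 432 genes with 10 to 100 estimated reads and 1.2 over 211 genes with 100 to 1000. The other 23 pairs within groups reached at least 10 and 21.9. Both were averaged and counted as 1 sample, which leaves 4 recovered, 6 pre-leukemic and 2 healthy samples. The housekeeping gene Tbp was at 0 in 2 libraries, so a gene is only said to be listed at 0, and a mean that includes such a library is a mean of listed values.

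H19 and Igf2 were among the more abundant transcripts of the recovered and healthy cells and far lower in the pre-leukemic cells, where both were listed at 0 in some libraries. H19 (GRCm38 chr7:142575529-142578143, minus strand, annotated as lincRNA) was at 139.7, 189, 97.0 and 234 FPKM in recovered libraries 1 to 4. It was listed at 0 in 4 of the 6 pre-leukemic libraries and at 1.47 and 10.5 FPKM in pre-leukemic 4 and 5. In healthy libraries 1 to 3 it was at 100.1, 66.6 and 114 FPKM. Every pre-leukemic library lay below every other library, and 1 of 6 held most of that group's signal. The recovered mean was 165 ± 59.4 FPKM (SD, n = 4), the pre-leukemic mean 1.99 FPKM (0.294 without pre-leukemic 5) and the healthy mean 86.7 ± 28.5 FPKM (n = 2 samples), and the recovered and healthy ranges overlapped. A count of 3 reads would have given 0.218 to 0.319 FPKM of H19 in a pre-leukemic library, so a library listed at 0 could still hold that much. This floor and the estimated reads cover counting error only.

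Igf2 (chr7:142650766-142666816, minus strand), the growth factor gene of the pair, was at 328, 124, 121 and 317 FPKM in recovered libraries 1 to 4. In pre-leukemic libraries it ran between 0 and 3.97 FPKM with a median of 0.954, and 2 of 6 libraries were at 0. In healthy libraries 1 to 3 it was at 209, 293 and 203 FPKM. Recovered libraries fell into a higher pair and a lower pair on either side of the healthy range, and no pre-leukemic library came near either group. By its mean, Igf2 stood 472nd of 13118 genes in recovered samples, 10545th in pre-leukemic samples and 348th in healthy samples. H19 stood 608th, 10126th and 908th in that order of groups. The estimated reads behind Igf2 were 897 to 4294 in a recovered library, 0 to 110 in a pre-leukemic library and 2705 to 3558 in a healthy one. The antisense gene Igf2os, which overlaps Igf2, was listed at 0 in every library, and whether reads were counted by strand is not given in the sources used here.

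H19 is also the host of miR-675, whose hairpin lies within it on the same strand. Its mature arms, from RefSeq (GRCm38.p6), are shown with the seed, bases 2 to 8, in capitals, because the hairpin's own row behaved unlike its host.
mmu-miR-675-5p: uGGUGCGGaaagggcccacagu
mmu-miR-675-3p: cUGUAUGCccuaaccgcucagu
The 2 seeds differ. The Mir675 row was at 176 FPKM in pre-leukemic 4, where H19 was at 1.47 FPKM, and under 0.001 FPKM in the other 12 libraries, including those with the most H19. A poly(A) library does not measure mature miRNAs, and an FPKM over so short a feature can be large from few reads, so this row says nothing about the level of miR-675.

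Igf2r and Grb10 act against the growth signal of Igf2. Igf2r (chr17:12682406-12769664, minus strand) encodes the mannose 6-phosphate receptor that carries Igf2 to the lysosome. It was at 34.2, 15.5, 20.7 and 45.7 FPKM in recovered libraries 1 to 4. It ran from 1.30 to 4.65 FPKM with a median of 2.26 in pre-leukemic libraries, and was at 36.7, 24.9 and 33.1 FPKM in healthy libraries 1 to 3. The recovered and healthy ranges overlapped, and both lay above the highest pre-leukemic library. Airn, the noncoding RNA that overlaps Igf2r from the other strand, reached 2.45 FPKM in recovered 1 and at 0 in the other 3 recovered libraries, between 0 and 16.5 FPKM in pre-leukemic libraries, and at 1.65, 0 and 1.49 FPKM in healthy ones. Reads from the overlap of both genes cannot be told apart without strand.

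Grb10 (chr11:11930508-12038683, minus strand) encodes an adaptor that binds the insulin and IGF1 receptors and dampens their signal. It was at 51.5, 71.2, 75.7 and 57.1 FPKM in recovered libraries 1 to 4. Pre-leukemic libraries ran from 0.767 to 3.45 FPKM with a median of 1.93, and healthy libraries 1 to 3 were at 23.1, 29.0 and 23.3 FPKM. The 3 groups did not overlap, with recovered highest and pre-leukemic lowest, and Grb10 was the only one of the 10 genes for which all recovered libraries stood above all healthy ones.

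At the second imprinted pair the noncoding RNA was the abundant partner. Meg3 (chr12:109541001-109571726, plus strand), a maternally expressed long RNA, was at 25.9, 18.2, 26.3 and 36.1 FPKM in recovered libraries 1 to 4. In pre-leukemic libraries it ran from 0 to 8.31 FPKM with a median of 1.69, highest in pre-leukemic 6. In healthy libraries 1 to 3 it was at 37.9, 46.2 and 43.6 FPKM. The groups did not overlap, and recovered libraries stood between pre-leukemic and healthy ones, the highest of them 36.1 FPKM beside the lowest healthy library at 37.9.

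Dlk1 (chr12:109452823-109463336, plus strand), a membrane protein that holds back fat-cell differentiation, was at 0, 0, 1.90 and 6.69 FPKM in recovered libraries 1 to 4. It was listed at 0 in 5 of 6 pre-leukemic libraries and at 0.176 FPKM in pre-leukemic 1, and was at 0.0779, 0 and 0.174 FPKM in healthy libraries 1 to 3. Only recovered 3 and 4 stood clear of the level of 3 reads, which for Dlk1 was 0.225 to 0.410 FPKM in recovered, 0.107 to 0.157 in pre-leukemic and 0.205 to 0.251 in healthy libraries. Dlk1 did not reach 1 FPKM in 3 libraries, so it was left out of the fit and 9 of the 10 genes were fitted.

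Cdkn1c (chr7:143458339-143461050, minus strand) lies in the imprinted domain next to H19 and Igf2 and encodes p57Kip2, an inhibitor of cyclin-dependent kinases. It was at 18.4, 24.9, 0.340 and 38.3 FPKM in recovered libraries 1 to 4. Pre-leukemic libraries ran from 0 to 4.58 FPKM with a median of 1.17, and healthy libraries 1 to 3 were at 59.4, 122 and 61.9 FPKM. Every healthy library was above every recovered one, and recovered 3, with about 1 estimated read, fell within the pre-leukemic range. The recovered mean was 20.5 ± 15.8 FPKM (n = 4) and 27.2 ± 10.2 without recovered 3 (n = 3), still below the healthy mean of 91.5 ± 43.5 (n = 2 samples).

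The remaining 3 genes are maternally silenced. Peg3 (chr7:6703892-6730431, minus strand), a zinc-finger protein, was at 4.12, 5.37, 7.71 and 21.2 FPKM in recovered libraries 1 to 4, at 0 to 0.366 FPKM in pre-leukemic libraries, and at 7.95, 10.99 and 7.24 FPKM in healthy libraries 1 to 3. Recovered and healthy libraries overlapped, and no pre-leukemic library held more than 14.3 estimated reads. Plagl1 (chr10:13060504-13131694, plus strand), a zinc-finger transcription factor, was at 18.2, 20.6, 0 and 9.42 FPKM in recovered libraries 1 to 4. It was between 0 and 1.42 FPKM in pre-leukemic libraries and at 2.41, 9.67 and 2.88 FPKM in healthy libraries 1 to 3. Recovered 3 was again the exception, without which the recovered mean was 16.1 ± 5.90 FPKM (n = 3) in place of 12.1 ± 9.37 (n = 4). That library also had the highest endothelial marker sum, at 141 FPKM against 0.143 to 11.3 in the other recovered libraries, and the highest leukocyte marker sum of the recovered libraries, at 251 FPKM. Its 1 read on 1 kb was worth the most, 0.636 FPKM, and the part of these in its levels was not tested. Mest (chr6:30723547-30748465, plus strand), which encodes a protein of the hydrolase family, was listed at 0 in all 4 recovered libraries. Pre-leukemic 4 and 5 had 3.24 and 1.64 FPKM and the other 4 were at 0, while healthy libraries 1 to 3 had 2.08, 0 and 0.820 FPKM. Mest was thus low throughout and did not separate the groups, and 3 reads of it would have given 0.392 to 0.716 FPKM in a recovered library.

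**Figure D1:**
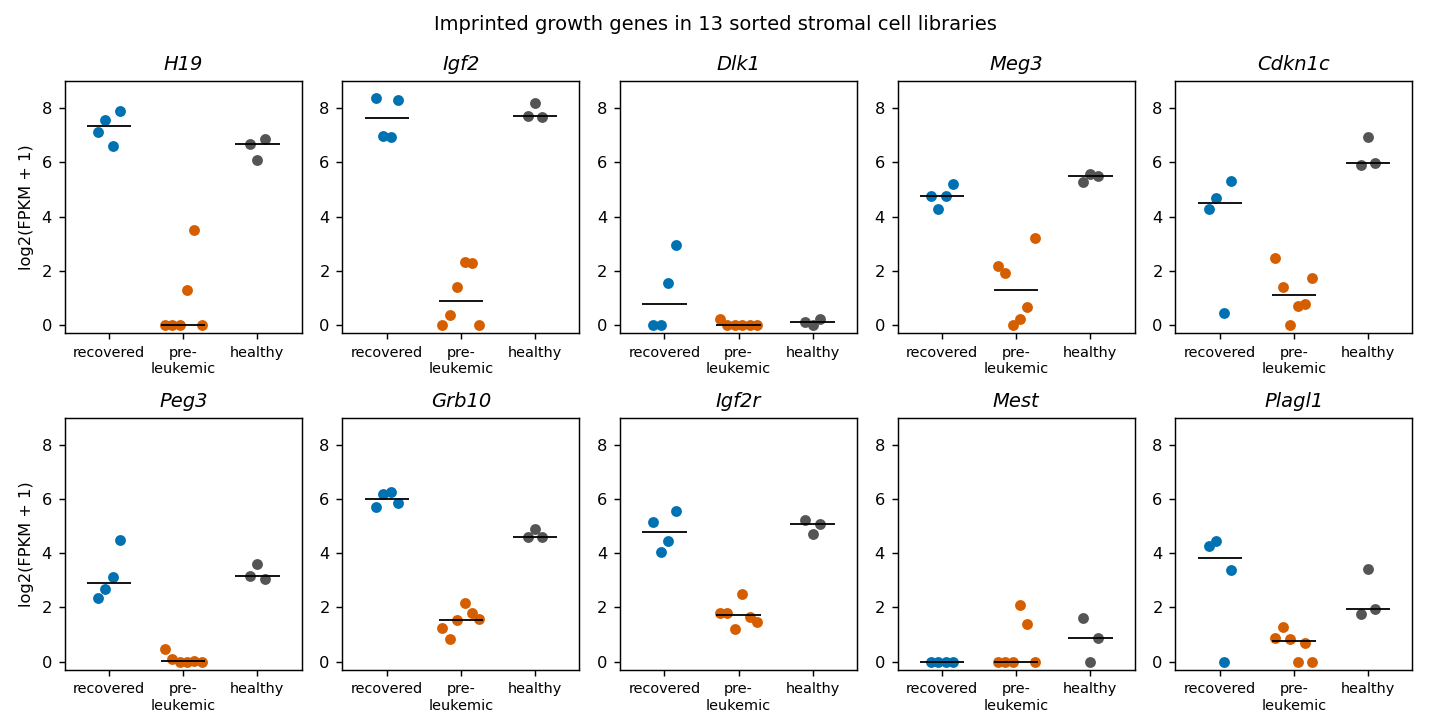
Level of each of the 10 imprinted genes on the log2(FPKM + 1) scale, 1 point per library and a line at the group median, for 4 recovered, 6 pre-leukemic and 3 healthy libraries. H19, Igf2, Meg3, Peg3, Grb10 and Igf2r show all recovered and healthy points above all pre-leukemic ones, recovered 3 drops to the pre-leukemic range for Cdkn1c and Plagl1, and Dlk1 and Mest stay near 0 in most libraries.

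The order of levels among the genes differed between the groups. In recovered samples the means ran from Igf2 at 222 ± 116 FPKM and H19 at 165 ± 59.4 to Grb10 at 63.9 ± 11.4, Igf2r at 29.0 ± 13.6, Meg3 at 26.7 ± 7.32, Cdkn1c at 20.5 ± 15.8, Plagl1 at 12.1 ± 9.37 and Peg3 at 9.60 ± 7.88 (SD, n = 4). Igf2 and H19 did not differ beyond their spread there, nor did Igf2r, Meg3 and Cdkn1c. In pre-leukemic samples Meg3, Igf2r, Grb10, H19, Cdkn1c and Igf2 all averaged between 1.62 and 2.55 FPKM and were not separated by their spread. In healthy samples Igf2 at 250 ± 61.9 FPKM was followed by Cdkn1c at 91.5 ± 43.5, H19 at 86.7 ± 28.5 and Meg3 at 43.5 ± 3.89 (n = 2 samples). Cdkn1c and H19 did not differ beyond their spread there. Grb10 was thus above Meg3 and Cdkn1c in recovered samples but below both in healthy ones, at 26.1 ± 4.07 FPKM, where it was not separated from Igf2r at 29.9 ± 7.10.

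RefSeq promoter windows, 250 bases before to 50 after a gene's start, were at hand for 8 of the 10 genes, in 15 windows that can overlap (GRCm38.p6). H19 and Cdkn1c were the other two. Of these windows 4 are shown, from genes whose recovered and healthy libraries all lay above every pre-leukemic one. Igf2r had the same pattern and is not shown. The 4 windows differ in their base composition. Capitals mark, on either strand, the cAMP response element letters TGACGTCA, the TATA box letters TATAAA, the GC box core GGGCGG and the letters CCAAT. These motifs were picked after the sequences had been seen and can overlap each other.
Igf2, chr7:142657447-142657746, minus strand: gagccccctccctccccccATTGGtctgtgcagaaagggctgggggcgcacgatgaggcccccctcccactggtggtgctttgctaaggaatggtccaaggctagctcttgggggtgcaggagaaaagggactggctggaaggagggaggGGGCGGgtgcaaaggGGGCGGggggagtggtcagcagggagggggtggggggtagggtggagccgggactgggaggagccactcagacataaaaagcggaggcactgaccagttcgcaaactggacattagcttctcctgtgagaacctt
Grb10, chr11:12037371-12037670, minus strand: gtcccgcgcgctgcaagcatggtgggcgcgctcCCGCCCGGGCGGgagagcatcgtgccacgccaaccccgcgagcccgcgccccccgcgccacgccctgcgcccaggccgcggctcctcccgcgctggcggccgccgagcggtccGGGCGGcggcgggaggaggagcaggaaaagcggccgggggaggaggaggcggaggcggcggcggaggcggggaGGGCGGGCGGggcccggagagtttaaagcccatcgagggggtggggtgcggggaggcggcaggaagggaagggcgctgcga
Meg3, chr12:109540746-109541045, plus strand: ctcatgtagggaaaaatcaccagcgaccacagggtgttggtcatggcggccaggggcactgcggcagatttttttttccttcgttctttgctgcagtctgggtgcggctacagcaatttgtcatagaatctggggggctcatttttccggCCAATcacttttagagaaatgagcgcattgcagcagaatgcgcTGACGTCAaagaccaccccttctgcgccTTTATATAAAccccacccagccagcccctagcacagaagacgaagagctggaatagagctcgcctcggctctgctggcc
Peg3, chr7:6730370-6730669, minus strand: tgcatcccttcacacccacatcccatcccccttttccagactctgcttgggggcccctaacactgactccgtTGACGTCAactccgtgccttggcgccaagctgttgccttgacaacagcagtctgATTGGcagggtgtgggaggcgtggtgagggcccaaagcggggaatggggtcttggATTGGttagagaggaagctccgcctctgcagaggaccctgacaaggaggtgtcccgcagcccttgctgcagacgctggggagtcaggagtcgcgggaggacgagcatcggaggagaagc
The letters TGACGTCA, which read the same on both strands, were in Meg3 and Peg3, 2 of the 8 genes, and in 2.03% of 27025 genes with a window. TATAAA was found in Meg3 alone, on both strands of a single stretch, against 15.7% of genes. GGGCGG was in 5 of the 8 (Grb10, Igf2, Igf2r, Mest and Plagl1) and in 38.2% of genes. CCAAT was in 3 of the 8 (Igf2, Meg3 and Peg3) and in 41.1% of genes. A gene was counted if any of its windows matched, and the 8 genes had more windows per gene than all genes had. By window, TGACGTCA was in 2 of 15 against 1.79% of 32851, and TATAAA in 1 of 15 against 13.6%. GGGCGG was in 8 of 15 windows against 35.7%, and CCAAT in 3 of 15 against 37.4%. GC content was 80.0% in the Grb10 window shown, with 45 CpG pairs, and 63.3, 53.7 and 61.3% in those of Igf2, Meg3 and Peg3, against a median of 52.7% with 7 CpG pairs over all 32851 windows. These matches describe the letters only, and neither start site use nor binding or methylation was measured.

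The first comparison set cells of pre-leukemic mice against those of healthy mice. H19, Igf2, Meg3, Cdkn1c, Peg3, Grb10 and Igf2r were lower in pre-leukemic samples, at 0.650 to 8.17% of the healthy mean. The log2(FPKM + 1) difference was -6.89 ± 0.71 (SE) for Igf2, -5.61 ± 0.82 for H19 and -5.26 ± 1.03 for Cdkn1c, and between -4.11 and -3.21 for Meg3, Peg3, Grb10 and Igf2r. This scale understates the difference of genes with low values. Plagl1 was at 9.87% of the healthy mean, with a difference of -2.03 ± 0.94, and Mest at -0.07 ± 0.58. The 7 genes named first passed limma's threshold of an adjusted p of 0.05, all lower, where 13.1% of the 13118 genes fitted passed as lower and 27.3% in either direction. Without healthy 2 the number of genes passing was 1580 in place of 3583, and 7 to 8 of the 10 genes passed whichever library was left out. For 8 of the 9, Plagl1 included, every pre-leukemic library was below every healthy one, as for 20.6% of all genes. The genes were chosen for this pattern, so nothing is read from these counts. In bulk libraries such as these, fewer cells of a type and less RNA per cell cannot be told apart.

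The second comparison, recovered against pre-leukemic, asked where the cells stood after treatment. All of the fitted genes except Mest were higher in recovered samples. The log2(FPKM + 1) difference was 6.58 ± 0.56 for Igf2, 6.49 ± 0.65 for H19, 4.48 ± 0.37 for Grb10 and 3.39 ± 0.60 for Meg3. It was 3.07 ± 0.42 for Igf2r, 3.06 ± 0.43 for Peg3, 2.49 ± 0.82 for Cdkn1c and 2.41 ± 0.74 for Plagl1, while Mest was listed at 0 in every recovered library. These 8 passed limma's threshold as higher and none as lower, where 14.8% of all genes passed as higher, 25.1% as lower and 40.0% in either direction. Cdkn1c did not pass at a pseudocount of 0.1, without the filter, or without recovered 1, recovered 2, recovered 4 or pre-leukemic 3, and Plagl1 did not pass at a pseudocount of 0.1 or without recovered 1 or recovered 2. The groups did not overlap for 6 of the 8, as for 10.7% of all genes in this direction, and overlapped for Cdkn1c and Plagl1 through recovered 3. The genes were chosen with these differences known, so nothing is read from these counts. Both comparisons use the same pre-leukemic samples, so they are not independent of each other.

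The third comparison, recovered against healthy, gave differences of both signs. None of the 9 fitted genes passed limma's threshold, where 0.518% of all genes passed as higher, 1.99% as lower and 2.51% in either direction (329 genes, 6 without healthy 2 and 679 without recovered 1), and 2 of them had an unadjusted p under 0.05. Over all fitted genes, 2161 of 13118 had such an unadjusted p. The 2 imprinted genes were Grb10, at 245% of the healthy mean with a difference of 1.25 ± 0.49, and Cdkn1c, at 22.4% with a difference of -2.77 ± 1.09. The genes were chosen with the values of all groups known, so nothing is read from these passes or p-values. All recovered libraries were above all healthy ones for Grb10, as for 6.64% of all genes, and below them for Cdkn1c and Meg3, as for 10.7%. Meg3 was at 61.3% of the healthy mean with a difference of -0.72 ± 0.80. Igf2 (-0.31 ± 0.75), Igf2r (-0.14 ± 0.56) and Peg3 (-0.19 ± 0.58) were at 89.1, 97.1 and 103% of the healthy mean, H19 (0.88 ± 0.87) and Plagl1 (0.38 ± 1) at 190 and 196%. Of these differences, those of Peg3, Igf2r and Plagl1 took either sign across the 20 alternative settings. With 2 healthy samples the SE was 0.49 to 1.09 log2 units, so a difference that missed the threshold is not shown to be absent.

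**Figure D2:**
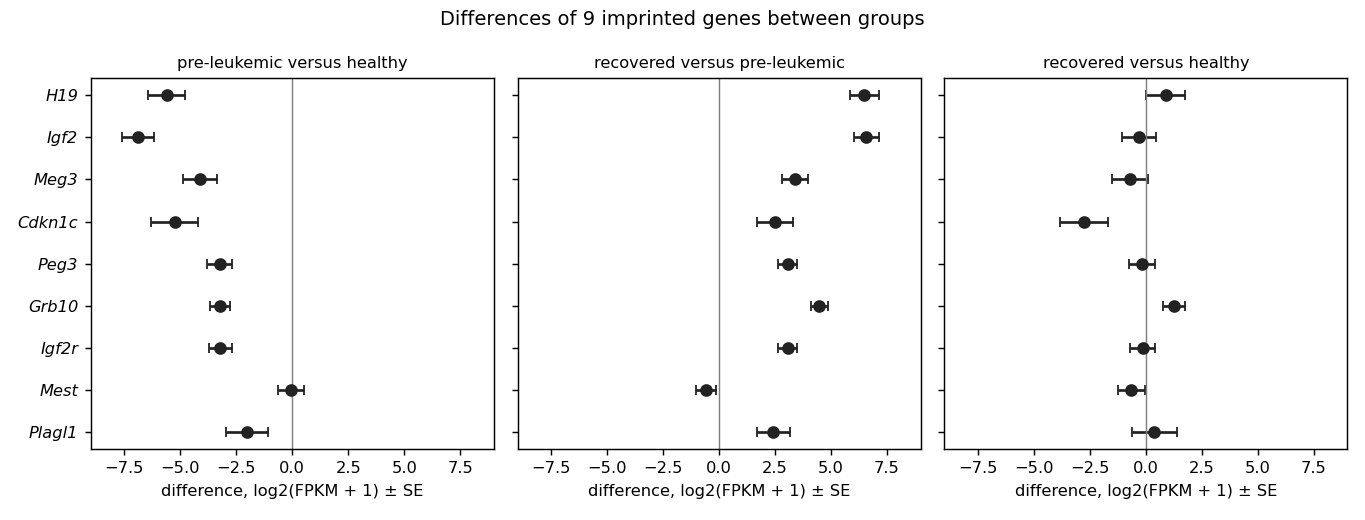
Difference of the 9 fitted genes on the log2(FPKM + 1) scale, with SE from limma, for pre-leukemic versus healthy, recovered versus pre-leukemic and recovered versus healthy samples. The first panel lies left of 0, with Mest nearest to it at -0.07, the second lies right of 0 apart from Mest, listed at 0 in recovered libraries, and in the third Grb10 at 1.25 and Cdkn1c at -2.77 are farthest from 0 on either side.

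Mesenchymal markers were measured beside these genes, since the pre-leukemic libraries also carried RNA of leukocyte and plasma cell markers. Relative to the healthy mean, the 9 fitted imprinted genes had a median of 97.1% in recovered and 5.87% in pre-leukemic samples. The 14 mesenchymal markers had a median of 70.1% in recovered samples, with a range of 25.7 to 187%, and 6.94% in pre-leukemic samples, with a range of 0.741 to 404%. The leptin receptor Lepr, which marks marrow stromal cells, was at 140% in recovered and 6.88% in pre-leukemic samples, and the chemokine Cxcl12 at 167 and 10.1%. In recovered samples 9 of the 14 markers were below the healthy mean, the lowest being Nt5e at 25.7% and the collagen chain Col1a2 at 31.3%. In pre-leukemic against healthy samples, limma called 1 mesenchymal marker higher and 10 lower of 14, all 14 pan-leukocyte and all 8 plasma cell markers higher, 7 of 8 osteoblast and all 8 tested chondrocyte markers lower. In recovered against healthy samples it called none of the mesenchymal, leukocyte, plasma cell or osteoblast markers and 2 of 8 chondrocyte markers, both lower. The osteoblast markers had a median of 26.9% of the healthy mean in recovered samples, however. Of these 8 markers, 6 had an unadjusted limma p under 0.05, as had 2161 of all 13118 genes fitted. Osteoblast markers summed to 771 to 1511 FPKM in recovered, 45.3 to 114 in pre-leukemic and 3948 to 5082 in healthy libraries, without overlap between any of the groups. Chondrocyte markers summed to 891 to 1257 FPKM in recovered, 2.71 to 11.9 in pre-leukemic and 4366 to 4580 in healthy libraries. The part of these other cell types in the levels of the imprinted genes was not tested.

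**Figure D3:**
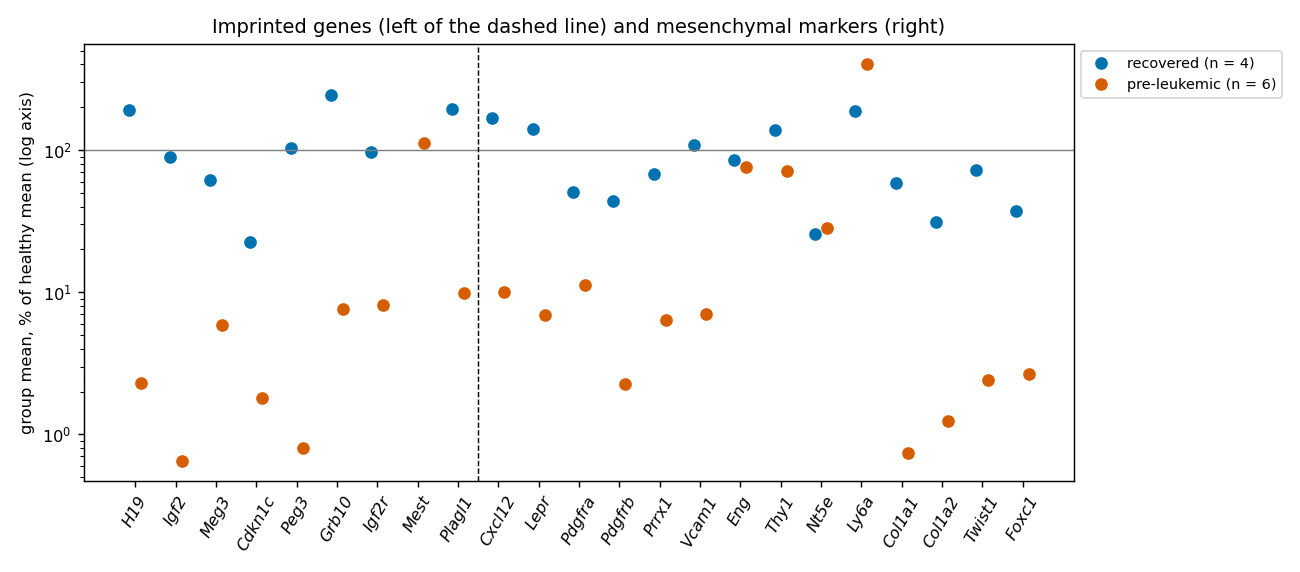
Group mean as a percentage of the healthy mean (log axis) for the 9 fitted imprinted genes and the 14 mesenchymal markers, in recovered (n = 4) and pre-leukemic (n = 6) samples, with a line at the healthy mean. Pre-leukemic points of H19, Igf2, Cdkn1c and Peg3 lie at 0.650 to 2.30%, against 0.741 to 404% for the markers, with Igf2 below all of them. Mest, at 0 in recovered samples, has no recovered point.

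Ratios between genes of the same library do not depend on how the library was scaled. H19 per Igf2 was 0.426 to 1.53 in recovered libraries, with a median of 0.771, 0.371 and 2.72 in the 2 pre-leukemic libraries that had both genes above 0, and 0.227 to 0.561 in healthy ones, with a median of 0.479. Igf2 per Igf2r, the ligand over the receptor that removes it, was 5.84 to 9.58 in recovered libraries, at most 1.85 in the 4 pre-leukemic libraries with Igf2 above 0, and 5.68 to 11.8 in healthy libraries. Grb10 per Igf2 was 0.157 to 0.626 in recovered libraries, 0.639 to 2.76 in the same 4 pre-leukemic libraries and 0.0987 to 0.115 in healthy libraries, without overlap. Cdkn1c per Igf2 was 0.00281 to 0.201 in recovered libraries, 0.161 to 5.82 in 3 pre-leukemic libraries and 0.285 to 0.417 in healthy libraries, without overlap between recovered and healthy ones. The balance of H19 to Igf2 and of Igf2 to Igf2r thus overlapped between recovered and healthy libraries, while Grb10 was higher and Cdkn1c lower relative to Igf2.

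The genes whose profiles were most like those of H19 and Igf2 were looked for among the other 13117 fitted genes. The measure was the root mean square difference between log2(FPKM + 1) profiles over the 12 samples, each centred on its own mean. Closest to H19 was Igf2, at 0.877 log2 units, followed by Pam, an enzyme that amidates peptides, at 0.941, the collagen chaperone Serpinh1 at 0.976, the secreted peroxidase Gpx3 at 1 and the matrix protein Fbln1 at 1.01. Closest to Igf2 was Pam at 0.736, then H19, the bone collagen chain Col1a1 at 0.886, the IGF-binding protein family member Igfbp7 at 0.964 and 1500015O10Rik at 0.982. Pam averaged 531 ± 148 FPKM in recovered, 6.29 ± 4.78 in pre-leukemic and 387 ± 28.2 in healthy samples. For the other fitted genes, many genes outside the 10 lay nearer than any of the 10. Peg3 and Igf2r differed by 0.526 log2 units, each the nearest of the 10 to the other, and stood 19th and 24th in each other's order. The nearest of the 10 was 64th for Meg3 (Peg3), 188th for Cdkn1c (Meg3), 264th for Grb10 (Igf2r), 868th for Plagl1 (Igf2r) and 11564th for Mest (Igf2r). The 12 points share the 3 groups, with their depth and composition.

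Other imprinted genes were taken from a list, and whether each is imprinted in these cells was not measured. Of 62 listed, 58 were in the table and 33 passed the filter on low values. In pre-leukemic against healthy samples, 2 rose, 7 fell and 24 passed neither way, so 27.3% were called, the share called over all genes, with a median difference of -0.47 against 0.20 over all genes; without healthy 2 the number called was 4 in place of 9. In recovered against pre-leukemic samples 6 rose and 3 fell (27.3%, against 40.0% of all genes), with a median of -0.04 against -0.41 over all genes, and against healthy samples only Ddc fell. On the TPM scale, which divides each library by its sum, the splits were 0 higher and 20 lower, then 9 higher and 0 lower, so the calls upward in pre-leukemic samples depend on the scaling. Decorin (Dcn), a collagen-binding proteoglycan of the matrix, averaged 5210 ± 1050 FPKM in recovered, 508 ± 250 in pre-leukemic and 12100 ± 458 in healthy samples, lower in pre-leukemic than healthy samples (-4.77 ± 0.46, limma adjusted p = 5.57e-06) and higher in recovered than pre-leukemic ones (3.53 ± 0.37, adjusted p = 4.15e-06). Sgce, a sarcoglycan, averaged 48.1 ± 31.4, 5.10 ± 3.81 and 31.3 ± 10.9 FPKM in the same order of groups. It fell in pre-leukemic against healthy samples (limma adjusted p = 0.033, 0.00272 to 0.123 over 20 alternatives), a call lost without pre-leukemic 2, pre-leukemic 6 or healthy 2 and without the filter, and rose in recovered against pre-leukemic samples (adjusted p = 0.00373).

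H13, which encodes a signal peptide peptidase, ran the other way, at 71.4 ± 35.0 FPKM in recovered, 312 ± 30.3 in pre-leukemic and 53.7 ± 3.88 in healthy samples. Its differences of 2.51 ± 0.45 in pre-leukemic against healthy (limma adjusted p = 0.000888) and -2.31 ± 0.36 in recovered against pre-leukemic samples (adjusted p = 0.000151) kept their sign but lost the call on the TPM scale, at 0.85 and -0.85 (adjusted p of 4.69e-06 to 0.28 and of 1.07e-05 to 0.181 over 20 alternatives each). Pon3, a lactonase of the paraoxonase family, averaged 15.2 ± 18.5, 74.6 ± 33.3 and 17.0 ± 3.73 FPKM and fell in recovered against pre-leukemic samples (-3.24 ± 0.77, limma adjusted p = 0.00425, 0.000427 to 0.083 over 20 alternatives), a call lost on the TPM scale. Dio3, the enzyme that inactivates thyroid hormone and lies in the domain of Dlk1 and Meg3, ran from 0 to 2.09 FPKM in recovered libraries, was listed at 0 in all 6 pre-leukemic libraries and averaged 3.73 FPKM in healthy samples (limma adjusted p = 0.00128 for pre-leukemic against healthy). Ddc, the enzyme that makes dopamine and serotonin, lies 141 kb from Grb10. It was listed at 0 in 3 of 4 recovered libraries and at 0.391 FPKM in recovered 4, ran from 0 to 6.58 FPKM in pre-leukemic libraries, and averaged 16.5 ± 7.93 FPKM in healthy samples. It fell in recovered against healthy samples (-3.94 ± 0.78, limma adjusted p = 0.0166, 0.00091 to 0.191 over 20 alternatives), a call lost without healthy 2 and at a pseudocount of 0.1. It also fell in pre-leukemic against healthy samples (-3.08 ± 0.74, limma adjusted p = 0.00625). Grb10, by contrast, was higher in every recovered library than in any healthy one.

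**Figure D4:**
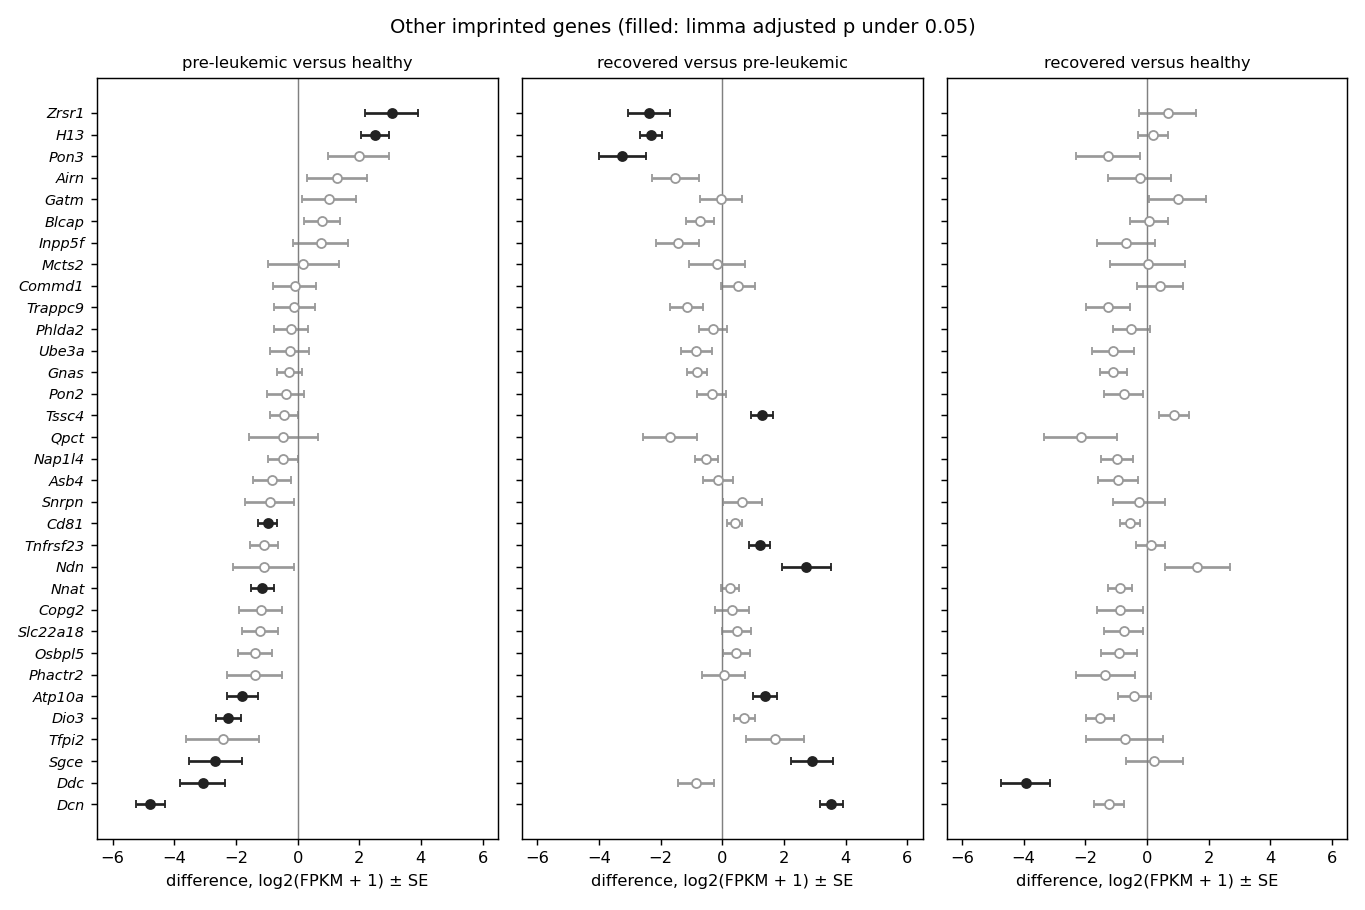
Difference of the 33 fitted genes listed as imprinted, outside the group of 10, on the log2(FPKM + 1) scale, with SE from limma, in the 3 comparisons, sorted by pre-leukemic versus healthy. Filled points passed an adjusted p of 0.05: 2 higher and 7 lower, then 6 higher and 3 lower, then Ddc alone, lower.

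The IGF axis around Igf2 was described from 29 listed ligands, receptors, binding proteins, proteases and signalling genes, of which 21 were fitted. In pre-leukemic against healthy samples none rose, 12 fell and 9 passed neither way, where 13.1% of all genes passed as lower, with a median difference of -1.84 against 0.20 over all genes. Without healthy 2 the number that passed was 7. Between recovered and pre-leukemic samples 10 rose and none fell in recovered ones, where 14.8% of all genes passed as higher, with a median of 1.50 against -0.41 over all genes, and in recovered against healthy samples 2 fell, with a median of -0.14, and none passed without healthy 2, where Stc2 was below the filter. Those that fell were the carriers Igfbp2, Igfbp3, Igfbp4, Igfbp5, Igfbp6 and Igfbp7, the secreted Htra1 and Stc2, the RNA-binding protein Igf2bp2 and the signalling genes Irs2, Pik3r1 and Foxo3. Igfbp7, which binds IGFs weakly, averaged 893 ± 245 FPKM in recovered, 27.0 ± 13.7 in pre-leukemic and 1430 ± 52.9 in healthy samples, with differences of -5.86 ± 0.49 in pre-leukemic against healthy (limma adjusted p = 1.67e-06) and 5.14 ± 0.39 in recovered against pre-leukemic samples (2.43e-07). Htra1, a secreted protease that cuts IGF-binding proteins, averaged 489 ± 153, 11.5 ± 6.09 and 535 ± 31.2 FPKM in the same order, with differences of -5.57 ± 0.49 (adjusted p = 2.36e-06) and 5.38 ± 0.39 (1.48e-07).

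Igfbp5, the main IGF carrier of bone, averaged 452 ± 97.2 FPKM in recovered, 33.0 ± 26.4 in pre-leukemic and 337 ± 15 in healthy samples, and fell in pre-leukemic against healthy (-3.66 ± 0.60, limma adjusted p = 0.000405) and rose in recovered against pre-leukemic samples (4.05 ± 0.47, 1.19e-05). Igfbp4, a carrier that withholds IGF from its receptor, averaged 317 ± 74.3, 17.7 ± 8.43 and 110 ± 14.8 FPKM and rose in recovered against pre-leukemic samples (4.20 ± 0.38, adjusted p = 1.21e-06). Igfbp2 averaged 2.09 ± 1.35 FPKM in recovered samples, was listed at 0 in all pre-leukemic libraries and averaged 15.9 ± 2.23 FPKM in healthy samples. It was lower in recovered than in healthy samples (-2.57 ± 0.50, limma adjusted p = 0.015, 0.00271 to 0.204 over 20 alternatives), a call lost without healthy 2, under quantile normalization and at a pseudocount of 0.1. Stc2, an inhibitor of the protease that frees IGF from Igfbp4, was listed at 0 in 3 of 4 recovered libraries and at 0.0947 FPKM in recovered 1, ran from 0 to 0.778 FPKM in pre-leukemic libraries and averaged 5.09 ± 2.56 FPKM in healthy samples (-2.51 ± 0.41 in recovered against healthy samples, adjusted p = 0.00537). Stc2 passed the filter only through the healthy libraries, so it could only come out lower than them, and nothing is read from this p. Igf1, the ligand of adult life, was at 31.9, 13.9, 448.6 and 142 FPKM in recovered libraries 1 to 4, at 3.18 to 21.1 FPKM in pre-leukemic libraries and at 28.2, 35.1 and 31.6 FPKM in healthy libraries 1 to 3. The receptor gene Igf1r averaged under 1 FPKM in each group, at 0.552 ± 0.587, 0.772 ± 0.614 and 0.694 ± 0.981 FPKM.

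A list of 22, of which 15 were fitted, held factors that read, keep or erase imprints, and also Hmga2, Lin28a and Lin28b. In pre-leukemic against healthy samples 2 rose and 3 fell (33.3%, against 27.3% of all genes), with a median difference of 0.00, and without healthy 2 the number that passed was 1 in place of 5. In recovered against pre-leukemic samples 2 rose and 6 fell (53.3%, against 40.0% of all genes), with a median of -0.47 against -0.41 over all genes. None passed limma's threshold in recovered against healthy samples, where 5 had an unadjusted p under 0.05, as had 2161 of all 13118 genes fitted. The split depends on the scaling: on the TPM scale it was 0 higher and 6 lower, then 6 higher and 1 lower, and under quantile normalization 3 and 3 in both comparisons. Ctcf, the insulator protein of the H19 and Igf2 control region, averaged 3.01 ± 2.61 FPKM in recovered, 24.0 ± 4.83 in pre-leukemic and 12.1 ± 7.03 in healthy samples. It fell in recovered against pre-leukemic samples (-2.88 ± 0.48, limma adjusted p = 0.000279, 0.000101 to 0.0314 over 20 alternatives). Dnmt1, the methyltransferase that copies methylation after replication, averaged 3.12 ± 1.40, 11.5 ± 1.70 and 4.05 ± 0.464 FPKM (-1.65 ± 0.37 in recovered against pre-leukemic samples, limma adjusted p = 0.00267, 0.000777 to 0.491 over 20 alternatives), a call lost on the TPM scale. Its partner Uhrf1 ran the other way, at 3.79 ± 2.07, 0.468 ± 0.606 and 2.99 ± 0.110 FPKM (1.69 ± 0.41, adjusted p = 0.00476).

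Smchd1, which keeps some imprinted clusters silent, fell in recovered against pre-leukemic samples (-3.07 ± 0.74, limma adjusted p = 0.00437, 7.92e-06 to 0.0782 over 20 alternatives), a call lost on the TPM scale. It was at 33.1 FPKM in recovered 3 and at most 1.36 FPKM in the other 3 recovered libraries, and averaged 33.2 ± 11.8 FPKM in pre-leukemic and 6.66 ± 4.15 FPKM in healthy samples. Yy1, a zinc-finger factor with sites in the Peg3 control region, averaged 28.8 ± 27.2, 46.7 ± 11.4 and 3.62 ± 1.11 FPKM in recovered, pre-leukemic and healthy samples and rose in pre-leukemic against healthy samples (3.36 ± 0.63, limma adjusted p = 0.00114, 0.000164 to 0.0667 over 20 alternatives), a call lost on the TPM scale. Kdm1b, a histone demethylase needed to set maternal imprints, averaged 2.74 ± 4.83, 11 ± 6.71 and 0.642 ± 0.540 FPKM (2.71 ± 0.85 in pre-leukemic against healthy samples, limma adjusted p = 0.0284, 0.00568 to 0.227 over 20 alternatives). Its call was lost without healthy 2, on the TPM scale, at a pseudocount of 0.1 and without the filter. Tet2, which oxidizes methylated cytosine, fell in pre-leukemic against healthy samples to 1.74 ± 0.695 FPKM, against 8.74 ± 4.12 FPKM in healthy samples (limma adjusted p = 0.016, 0.000609 to 0.236 over 20 alternatives), a call lost without healthy 2. Hmga2, a chromatin protein, fell in the same comparison to at most 0.3 FPKM, against 1.73 ± 0.662 FPKM in healthy samples (limma adjusted p = 0.0083). In recovered libraries Hmga2 was at most 0.274 FPKM, so it passed the filter only through the healthy libraries. It could therefore only come out lower, and nothing is read from this p.

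Genes next to the 10 were taken by position. Of 155 annotated genes in the table that start within 250 kb of one of the 10, 28 were fitted. In pre-leukemic against healthy samples 3 rose and 2 fell (17.9%, against 27.3% of all genes, median -0.10), and 3 passed without pre-leukemic 1, pre-leukemic 2 or healthy 2. In recovered against pre-leukemic samples 2 rose and 5 fell (25%, against 40.0% of all genes, median -0.51), and in recovered against healthy samples Ddc alone fell (median -0.49). On the TPM scale the first 2 splits were 1 higher and 10 lower, then 6 higher and 2 lower. Ctsd, a lysosomal protease 190 kb from H19, averaged 598 ± 108 FPKM in recovered, 140 ± 14.5 in pre-leukemic and 437 ± 34.1 in healthy samples (-1.63 ± 0.23 in pre-leukemic against healthy samples, limma adjusted p = 0.00012, and 2.07 ± 0.18 in recovered against pre-leukemic samples, 8.83e-07). Tnfrsf26, a TNF receptor family gene of the same chromosomal domain, averaged 0.257 ± 0.381, 5.17 ± 2.32 and 0.102 ± 0.144 FPKM (2.39 ± 0.51 in pre-leukemic against healthy samples, limma adjusted p = 0.00282, 0.000382 to 0.0562 over 20 alternatives, and lost without healthy 2). Between recovered and pre-leukemic samples it differed by -2.24 ± 0.40 (limma adjusted p = 0.000513). Outside the pre-leukemic libraries it was at most 0.807 FPKM, so it passed the filter only through them, and nothing is read from either p. Its neighbour Tnfrsf23 rose in recovered samples to 2.19 ± 0.893 FPKM, against 0.390 ± 0.420 in pre-leukemic samples (1.21 ± 0.35, limma adjusted p = 0.0136, 0.000937 to 0.0566 over 20 alternatives). Mrpl18, a mitochondrial ribosomal protein gene near Igf2r, rose in pre-leukemic samples to 67.8 ± 16.8 FPKM, against 28.7 ± 9.02 in healthy samples (1.22 ± 0.40, limma adjusted p = 0.0349, 0.0154 to 0.547 over 20 alternatives). That call was lost without pre-leukemic 1, pre-leukemic 2, pre-leukemic 4 or healthy 2, and with replicate number as a block. The sign turned to -0.42 on the TPM scale. Cep41, a centrosomal protein gene near Mest, fell in recovered samples to 0.876 ± 0.838 FPKM, against 3.75 ± 1.34 in pre-leukemic samples (-1.41 ± 0.41, limma adjusted p = 0.0136, 0.00646 to 0.417 over 20 alternatives). Its call was lost on the TPM scale, under quantile normalization and with that block. None of the other genes that start within 250 kb of Peg3, Dlk1 or Meg3 passed the filter on low values.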

How the data were processed

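Gene-level FPKM values for 13 libraries were used as deposited. The authors made them with TopHat, Cufflinks 2.2.1 and Cuffnorm on the mouse build mm10, per the submitters' processing notes, from poly(A) RNA libraries made with Nextera XT, per the labels' protocols. How Cuffnorm scaled the libraries, the gene annotation and strand handling are not stated there. FPKM values hold no read counts, so 1 read was estimated from the steps between low values of single-transcript genes, as depth per library. One row with no gene name was dropped, leaving 33432, of which 32082 matched a symbol in GENCODE M21 (GRCm38), the source of coordinates. Promoters and miRNAs came from RefSeq (GRCm38.p6).

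The 10 genes, the gene lists and the tests were chosen with earlier results of these data known. Differences were fitted with limma 3.58.1 (trend) in R 4.3.3 on log2(FPKM + 1), over all 3 groups in 1 fit of 12 samples, for the 13118 genes that reached 1 FPKM in 3 or more libraries. The Benjamini-Hochberg adjustment ran over these genes, with a threshold of 0.05. Healthy 1 and 3 were averaged. The procedure was tested on simulated data first. Alternatives were quantile normalization, the TPM scale (each library set to a sum of 1000000), scaling without immunoglobulin genes, a pseudocount of 0.1, no filter, 13 separate libraries, a replicate block and leaving out each library. The text names all 10 genes, up to 4 called genes with the smallest p per list and comparison, and the 5 nearest profiles of H19 and Igf2. Igf1, Igf1r, Airn, Igf2os, the Mir675 row and single markers were added after their values were seen. Summaries used Python 3.11.15 with numpy 2.4.6, pandas 2.3.3 and scipy 1.17.1, and figures matplotlib 3.10.9.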

Additional observations from a re-analysis of the deposited data

Results flagged for a closer look

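The highest or lowest library of a group was compared with its nearest neighbour in 67 groups of 4 or 6 libraries, and 9 stood apart by Dixon's 95% criterion, 4 of them among the 10 imprinted genes. Chance sets about 1 in 20 groups apart in this way where values are normally distributed and not tied. FPKM is bounded at 0 and every library flagged was the highest of its group, so the rate need not hold here. That rate does not apply to Dlk1, Ddc, Hmga2 and Stc2, whose other libraries were all at 0. Nor does it apply to H19 and Peg3, listed at 0 in 4 and 3 of the 6 pre-leukemic libraries. H19 was at 10.5 FPKM in pre-leukemic 5, against 1.47 FPKM in the next library of that group. Dlk1 was at 0.176 FPKM in pre-leukemic 1 and listed at 0 in the other 5. Peg3 was at 0.366 FPKM in pre-leukemic 1, with the next library at 0.0649 FPKM. Igf2r reached 4.65 FPKM in pre-leukemic 4, with the next at 2.44 FPKM. Among the listed genes, recovered 4 alone of its group was above 0 for Ddc (0.391 FPKM) and Hmga2 (0.274 FPKM), and recovered 1 alone for Stc2 (0.0947 FPKM). Kdm1b was at 9.96 FPKM in recovered 1, with the next at 0.875 FPKM. Smchd1 was at 33.1 FPKM in recovered 3, with the next at 1.36 FPKM. The Mir675 row, which no comparison used, was at 176.0 FPKM in pre-leukemic 4 and under 0.001 FPKM in the other 12 libraries, healthy ones included.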

How the results depend on the processing

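No difference of the 10 genes that passed the threshold changed sign under any of the 20 alternatives. Igf2 in pre-leukemic against healthy samples ran from -8.48 to -6.63 on the log2 scale and H19 from -7.94 to -5.45. The number of the 10 genes called was 7 to 8 in pre-leukemic against healthy, 6 to 8 in recovered against pre-leukemic and 0 in recovered against healthy samples. Of the single-gene differences, 1879 were counted as kept. For the 10 genes this meant a shift smaller than the SD of the first-named group, and for other genes the same side of the threshold. A change of sign was counted only where the difference had passed the threshold. Among the other genes 46 lost the call and 26 gained it, while 61 values of the 10 genes moved. Mest gave 17 of the moved values in each comparison that names recovered first. It was listed at 0 in all recovered libraries, so its SD there was 0 and any shift counted as moved. Mrpl18 in pre-leukemic against healthy samples reversed on the TPM scale (-0.42, limma adjusted p = 0.547, 0.0154 to 0.547 over its alternatives). The TPM scale moved the median of all genes by -1.32, 1.03 and -0.20 in the order pre-leukemic against healthy, recovered against pre-leukemic and recovered against healthy. Quantile normalization moved it by -0.13, 0.33 and 0.11 and scaling without immunoglobulin genes by 0.11, -0.23 and -0.13. Higher genes made up 51.9, 37.1 and 20.7% of calls in that order, 15.5, 76.2 and 9.96% on the TPM scale, and 50.4 and 31.3% in the last 2 under quantile normalization.

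In pre-leukemic against healthy samples, other imprinted genes called were 20 on the TPM scale, against 9. Neighbouring genes called were 11 on the TPM scale, 9 with 13 separate libraries and 3 with a replicate block, against 5. In recovered against pre-leukemic samples, neighbouring genes called were 3 with the block, against 7. In recovered against healthy samples, 211 of all genes were called under quantile normalization, 502 on the TPM scale and 767 with 13 separate libraries, against 329. There, other imprinted genes called were 2 on the TPM scale, without the filter and with 13 separate libraries and 0 at a pseudocount of 0.1, against 1. IGF axis genes called were 1 under quantile normalization and at a pseudocount of 0.1, against 2. Imprint control factors called were 1 on the TPM scale, without the filter and with the block and 3 with 13 separate libraries, against 0. Neighbouring genes called were 2 on the TPM scale and without the filter and 0 at a pseudocount of 0.1, against 1. The causes were not tested.

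Leaving out 1 library at a time, calls in pre-leukemic against healthy samples ran from 1580 (without healthy 2) to 4114 for all genes, 4 to 10 for other imprinted genes, 7 to 12 for IGF axis genes, 1 to 7 for imprint control factors and 3 to 5 for neighbouring genes. Between recovered and pre-leukemic samples they ran from 4655 to 5264, 9 to 11, 10 to 10, 6 to 8 and 5 to 9 in that order. In recovered against healthy samples they ran from 6 (without healthy 2) to 679 (without recovered 1), 0 to 2, 0 to 2, 0 to 1 and 0 to 2. Leaving out healthy 2 gives a healthy group of 1 sample, which is assumed to vary like the other groups.

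Replicate numbers recur across groups, but the deviations of 10 same-numbered pairs correlated at only -0.02 to 0.03, so the numbers were not taken as a pairing. With a replicate block on 13 separate libraries, 3700, 4527 and 303 genes and 7, 8 and 0 of the 10 genes were called in the 3 comparisons. Of the differences given, the block ended the calls of Mrpl18 in pre-leukemic against healthy samples and of Cep41 and Tnfrsf23 in recovered against pre-leukemic samples. Depth limits the low values: 3 reads of H19 are worth 0.218 to 0.319 FPKM in a pre-leukemic library, so a level listed at 0 is not shown to be absent.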
